A study of Mus musculus with 6 samples.

Results

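The genes described here are 41 cell cycle and proliferation genes of the mouse, measured by RNA sequencing of pancreatic islets. They were a named list of symbols, matched to the gene identifiers of the deposited count tables through GENCODE release M21 on GRCm38. All 41 were found among 55421 gene identifiers, and all 41 were among the 17016 genes with enough counts to be tested. The list holds 12 genes of S phase, 20 genes of G2 and mitosis (G2/M), 5 D cyclins and G1 kinases, and 4 inhibitors of cyclin-dependent kinases.

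The study compared 3 islet libraries of a vehicle group with 3 islet libraries of a group given the ligand insB:9-23, a name given to a stretch of the B chain of insulin. All 6 libraries came from wild-type mice of the strain C57BL/6, and no gene was altered in either group. The sources used here do not give dose, route, duration, age or sex, and the labels leave unsettled whether the animals or their isolated islets received the ligand. No label says that the libraries came from separate animals, so the spread behind each p-value may be technical.

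Progress through the cell cycle is driven by cyclin-dependent kinases. D cyclins bound to Cdk4 or Cdk6 act in G1 to release E2F factors from the RB protein, and E2F factors then switch on genes for DNA replication. Genes for chromosome condensation, spindle assembly and division are switched on later, in G2, through the MuvB complex with B-Myb and Foxm1, which binds CHR elements in their promoters. Most beta cells of an adult islet are resting, and cyclin D2 with Cdk4 is known as the main pair for their growth after birth.

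The promoters of these genes carried the short motifs of that scheme, and a few are shown because the comparison of S phase with G2/M genes rests on the same division. RefSeq windows on GRCm38.p6, from 250 bases before to 50 bases after each start site, were found for 32 of the 41 genes. Motifs were searched on both strands as TTTGAA or TTCGAA for the CHR, CCAAT for the CCAAT box and TTTNNCGC for an E2F site. No motif contains another, although matches may touch. Among all 32851 windows, 19.2% held a CHR, 37.4% a CCAAT box and 5.17% an E2F match. Counted by gene, as for the gene groups below, 5854 of 27025 held a CHR, 11096 a CCAAT box and 1602 an E2F match. Among the G2/M genes with a window, 12 of 15 held a CHR, 14 of 15 a CCAAT box and 1 of 15 an E2F match. Among the S phase genes with a window, 2 of 11 held a CHR, 8 of 11 a CCAAT box and 5 of 11 an E2F match. A match describes letters only and is not a measured binding site.

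The stretches below are the 150 bases just before the start site, written 5′ to 3′ along the gene, with every match to the 3 motifs in capitals. Top2a, the DNA topoisomerase of dividing cells, lies at chr11:99024190-99024339 on the minus strand and held 3 CHR matches and 4 CCAAT boxes.
Top2a: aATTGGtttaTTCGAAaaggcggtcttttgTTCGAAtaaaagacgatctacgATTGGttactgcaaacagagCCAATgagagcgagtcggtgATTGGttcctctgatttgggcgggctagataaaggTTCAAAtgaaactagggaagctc
Cdk1, the kinase that starts mitosis, lies at chr10:69352913-69353062 on the minus strand and was the G2/M gene that also held E2F matches.
Cdk1: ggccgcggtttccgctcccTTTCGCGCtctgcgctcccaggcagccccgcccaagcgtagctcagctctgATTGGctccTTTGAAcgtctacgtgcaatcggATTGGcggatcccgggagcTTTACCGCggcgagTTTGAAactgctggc
Mki67, which encodes the proliferation antigen Ki-67, lies at chr7:135716380-135716529 on the minus strand and held 2 CHR matches.
Mki67: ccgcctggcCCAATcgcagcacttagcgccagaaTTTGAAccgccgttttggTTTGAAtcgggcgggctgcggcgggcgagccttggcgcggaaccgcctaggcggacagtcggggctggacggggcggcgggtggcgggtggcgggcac
Kif11, a kinesin that pushes spindle poles apart, lies at chr19:37376232-37376381 on the plus strand.
Kif11: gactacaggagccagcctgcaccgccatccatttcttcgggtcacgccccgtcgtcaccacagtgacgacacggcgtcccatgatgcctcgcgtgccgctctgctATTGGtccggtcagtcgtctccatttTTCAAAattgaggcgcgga
Cdc20, an activator of the anaphase-promoting complex, lies at chr4:118437344-118437493 on the minus strand and is shown because it held the G2/M motifs while its log2 fold of insB:9-23 over vehicle was only 0.03 ± 0.22 (SE).
Cdc20: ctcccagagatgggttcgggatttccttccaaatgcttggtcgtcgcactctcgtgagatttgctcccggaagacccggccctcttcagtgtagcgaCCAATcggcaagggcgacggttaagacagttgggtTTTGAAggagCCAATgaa
For contrast, the S phase gene Mcm5, a subunit of the replicative helicase, lies at chr8:75109359-75109508 on the plus strand and held no CHR but 1 E2F match.
Mcm5: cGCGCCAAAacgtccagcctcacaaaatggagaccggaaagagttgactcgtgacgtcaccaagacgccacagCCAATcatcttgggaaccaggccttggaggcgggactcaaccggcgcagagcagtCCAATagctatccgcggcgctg
Mcm6, another helicase subunit, lies at chr1:128359706-128359855 on the minus strand and held 3 E2F matches, of which a pair overlap.
Mcm6: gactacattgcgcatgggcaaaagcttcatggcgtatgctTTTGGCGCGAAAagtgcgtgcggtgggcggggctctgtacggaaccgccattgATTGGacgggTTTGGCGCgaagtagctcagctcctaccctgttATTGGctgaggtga

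Total counts lay between 52052808 and 58880189 per library. Levels are given as CPM, the usual counts scaled to sequencing depth, at TMM-scaled library size, where 3 counts correspond to 0.0475 to 0.0655 CPM. Islet RNA was present: Ins1, an insulin gene, lay between 36385 and 40146 CPM, although the beta cell factor Mafa was at 0 in every library. The 10 beta cell markers summed to between 113555 and 130914 CPM. Acinar RNA was abundant too, and the 11 acinar markers summed to between 104155 and 226729 CPM with all 11 highest in insB:9-23 replicate 3. The acinar sum exceeded the beta cell sum in vehicle replicates 2 and 3 and in insB:9-23 replicates 1 and 3. Markers of lymphocytes were highest in insB:9-23 replicate 2, whose values are given below beside the genes they move with. In such tissue RNA, fewer cells of a type and less RNA per cell cannot be told apart.

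No cell cycle gene passed the test between the groups. edgeR's quasi-likelihood test with Benjamini-Hochberg adjustment called 0 of the 41 genes at an adjusted p below 0.05, where 0.0823% of all genes tested were called, and their adjusted p ranged from 0.88 to 0.995. At an unadjusted p below 0.05 there were 2 of 41, Tpx2 and Cenpe, where the share over all genes was 5.55%. DESeq2 also called 0 of the 41 after adjustment, where it called 0.682% of all genes, and had 4 at an unadjusted p below 0.05, where the share of all genes was 6.56%. In limma-voom 0 passed, where 0.0999% of all genes did, and 5 had an unadjusted p below 0.05, beside 6.21% of all genes. The log2 fold of insB:9-23 over vehicle was above 0 for 27 genes and below 0 for 14, where 51.5% of all genes were above 0. Its median over the 41 genes was 0.13, beside 0.01 over all genes tested.

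The gene groups differed in where their values lay, as description. G2/M genes had a median log2 fold of 0.36 with 17 of 20 above 0, and S phase genes one of 0.09 with 8 of 12 above 0. The S phase count was 3 of 12 with scaling by library totals alone and 5 of 12 without insB:9-23 replicate 2, while the G2/M count was 16 and 17 of 20. D cyclins and G1 kinases had a median of -0.48 with 4 of 5 below 0, and inhibitors one of -0.15 with 3 of 4 below 0. At TMM scaling the 3 libraries of each group did not overlap for 7 genes that were higher with insB:9-23, all of them G2/M genes, where 6.4% of all genes tested had that pattern. They did not overlap for 2 genes that were lower, Ccnd1 and Ccnd2, where the share of all genes was 7.12%. With library totals alone, the groups overlapped for Tpx2, Cenpe, Cdk1, Kif20a and Bub1, which are among the 7 higher genes.

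**Figure D1:**
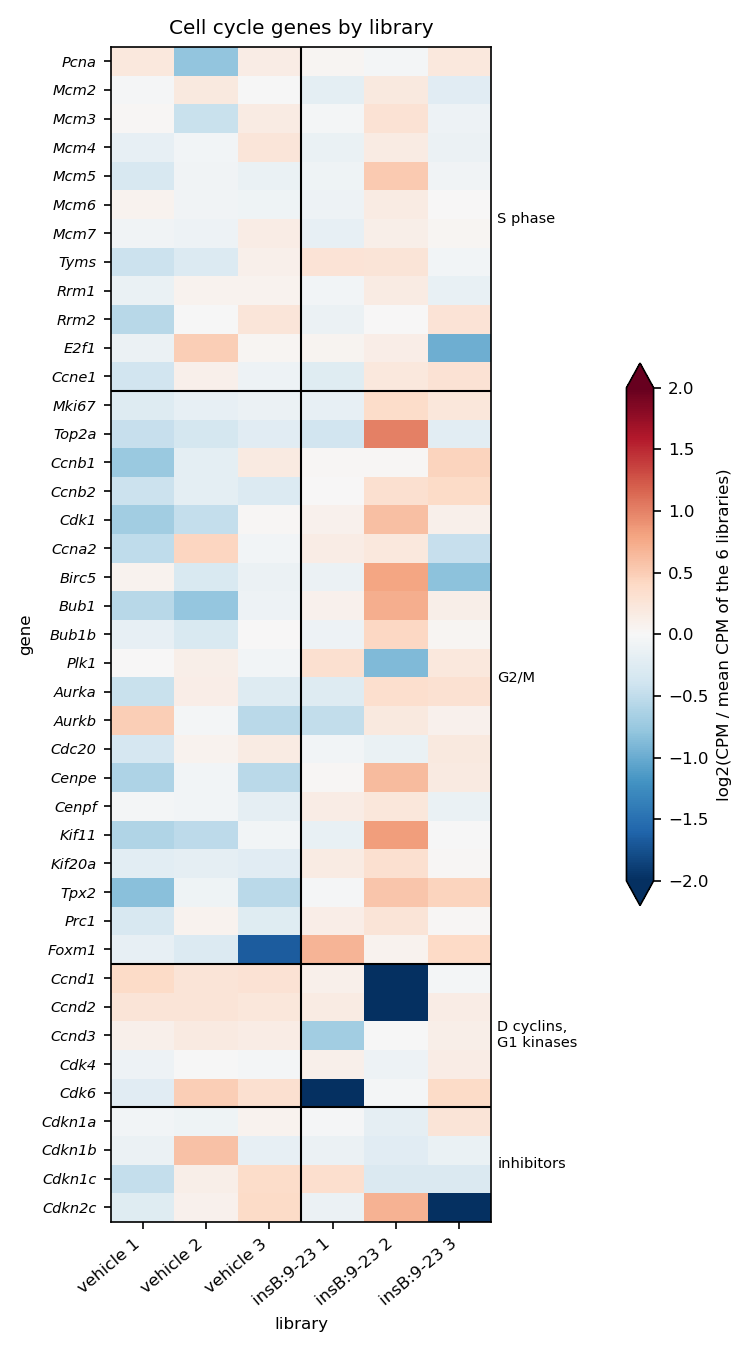
Level of each cell cycle gene (vertical axis, grouped by role) in each of the 6 libraries (horizontal axis), coloured by its log2 difference from the gene's own mean over libraries. The columns show Ccnd1 and Ccnd2 low in insB:9-23 replicate 2 (32.4 and 132 CPM) and most G2/M genes highest there (13 of 20).

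**Figure D2:**
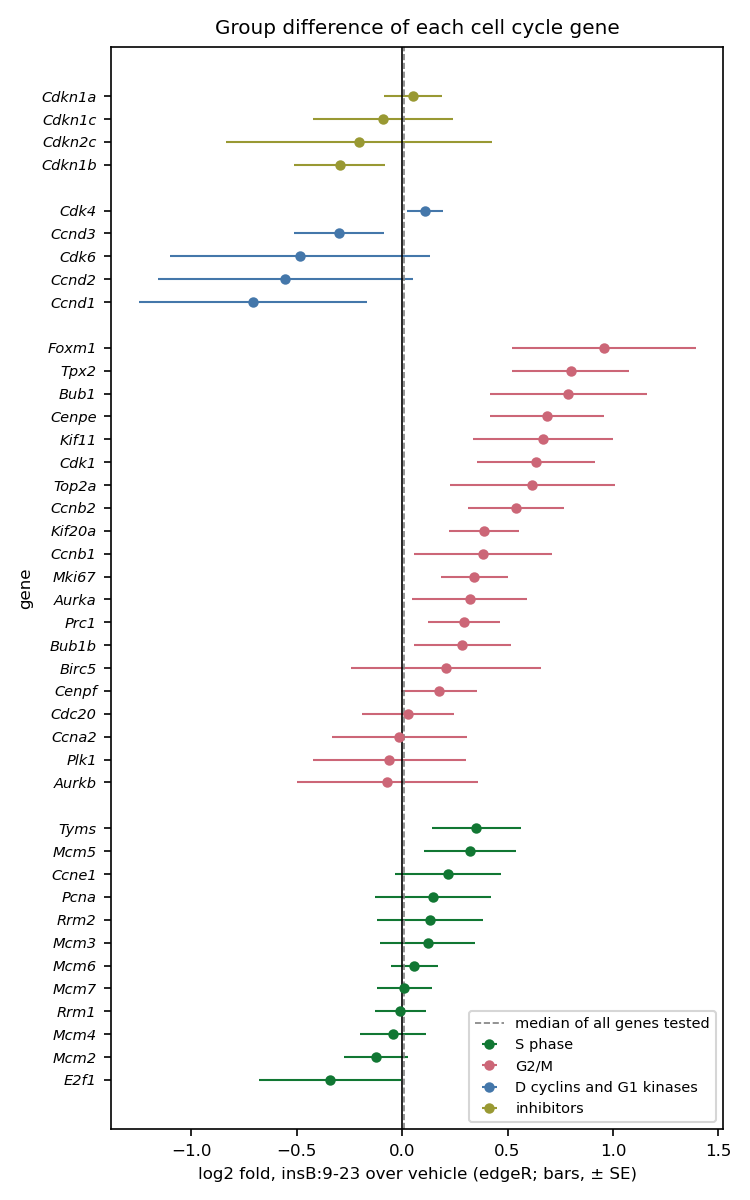
Log2 fold of insB:9-23 over vehicle for each cell cycle gene, from edgeR, with bars of ± 1 SE, coloured by gene group; the dashed line is the median of all genes tested (0.01). G2/M genes lie mostly to the right (17 of 20 above 0), D cyclins and G1 kinases mostly to the left (4 of 5 below 0), and no gene passed the test.

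Mki67 and Top2a had the highest CPM of the G2/M genes, without correction for length. Values are listed for replicates 1, 2 and 3 in that order throughout. Mki67 stood at 11.0, 11.7 and 12.2 CPM with vehicle and at 11.8, 17.1 and 15.4 CPM with insB:9-23. Its groups overlapped through replicate 1 of insB:9-23, and its log2 fold was 0.34 ± 0.16 (SE), with an adjusted p of 0.88 in edgeR, and 0.22 without insB:9-23 replicate 2. Top2a stood at 7.28, 7.82 and 8.54 CPM with vehicle and at 7.63, 20.0 and 8.61 CPM with insB:9-23. Only insB:9-23 replicate 2 was high, and the other 5 libraries lay between 7.28 and 8.61 CPM. Its log2 fold was 0.62 ± 0.39 (adjusted p 0.88, edgeR) with all libraries and 0.04 without that library.

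Tpx2 and Cenpe, which act on the mitotic spindle, had the lowest p-values of the list. Tpx2 (chr2:152847964-152895321), which activates Aurora A on spindle microtubules, was at 1.63, 2.72 and 1.99 CPM with vehicle and at 2.85, 4.23 and 3.95 CPM with insB:9-23. All 3 insB:9-23 libraries were above all 3 vehicle libraries, by a log2 fold of 0.80 ± 0.28 (unadjusted p 0.028, adjusted p 0.88, edgeR). Cenpe (chr3:135212537-135273611), the kinesin that brings chromosomes to the spindle equator, was at 1.58, 2.34 and 1.69 CPM with vehicle and at 2.48, 3.79 and 2.77 CPM with insB:9-23. Again the groups did not overlap, and the log2 fold was 0.69 ± 0.27 (unadjusted p 0.044, adjusted p 0.88, edgeR). Both rested on few reads, with the lowest library at 103 counts for Tpx2 and 90 for Cenpe. Neither kept an unadjusted p below 0.05 without vehicle replicate 1, vehicle replicate 3, insB:9-23 replicate 2 or insB:9-23 replicate 3. Without insB:9-23 replicate 2 the log2 folds were 0.69 and 0.49.

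Cdk1 and the B cyclins lay above 0, and cyclin A2 did not. Cdk1 was at 1.57, 1.83 and 2.57 CPM with vehicle and at 2.70, 3.84 and 2.71 CPM with insB:9-23, a log2 fold of 0.63 ± 0.28. Ccnb2, a B cyclin that partners Cdk1, was at 1.20, 1.43 and 1.35 CPM with vehicle and at 1.64, 2.03 and 2.12 CPM with insB:9-23, a log2 fold of 0.54 ± 0.23. The groups did not overlap for either gene, and both had an adjusted p of 0.88 in edgeR. The other B cyclin, Ccnb1, had a log2 fold of 0.38 ± 0.33, which was 0.17 without vehicle replicate 1, and cyclin A2 (Ccna2) one of -0.01 ± 0.32.

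Foxm1, the transcription factor that binds G2/M promoters with MuvB, had the highest log2 fold of the 41 genes, 0.96 ± 0.44 (adjusted p 0.88, edgeR). It was at 1.87, 1.73 and 0.656 CPM with vehicle and at 3.33, 2.19 and 2.75 CPM with insB:9-23. The groups did not overlap, but vehicle replicate 3, with 35 counts, stood well under the other vehicle libraries, and without it the log2 fold was 0.61. Kif20a, a kinesin of the dividing cell's midzone, was at 3.01, 3.08 and 2.98 CPM with vehicle and at 3.93, 4.38 and 3.56 CPM with insB:9-23. Its log2 fold was 0.39 ± 0.16 (adjusted p 0.88, edgeR) with no overlap, and 29.3% of its exonic bases lie on the opposite strand of Cdc23. The sources used here do not say whether the counting used strand, so reads of such overlapping genes may not be told apart. Prc1, which bundles midzone microtubules, was at 3.89, 5.06 and 4.10 CPM with vehicle and at 5.31, 5.78 and 4.92 CPM with insB:9-23, a log2 fold of 0.29 ± 0.17 with overlap.

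The remaining G2/M genes spread from log2 folds near those of Tpx2 and Cenpe to values around 0. Bub1, a kinase of the spindle checkpoint, did not overlap between groups but had a mean of only 0.742 CPM, with a log2 fold of 0.79 ± 0.37. Kif11 had a log2 fold of 0.67 ± 0.33 and, like Top2a, its highest value in insB:9-23 replicate 2, at 5.85 CPM, without which its log2 fold was 0.30. Bub1b, Aurka, Birc5, Cenpf and Cdc20 had log2 folds between 0.03 and 0.32. The mitotic kinases Plk1 and Aurkb and the cyclin Ccna2 were the 3 G2/M genes below 0, with log2 folds of -0.06, -0.07 and -0.01.

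S phase genes showed smaller differences between the groups. Pcna (chr2:132249162-132253314), the sliding clamp of DNA polymerases, was at 31.4, 15.6 and 30.0 CPM with vehicle and at 27.7, 26.2 and 31.3 CPM with insB:9-23. Vehicle replicate 2 was low and the other 5 libraries were alike, and the log2 fold of 0.15 ± 0.27 (adjusted p 0.95, edgeR) became -0.11 without it. Rrm1, the large subunit of ribonucleotide reductase, was at 16.5, 19.2 and 19.1 CPM with vehicle and at 17.6, 20.5 and 16.4 CPM with insB:9-23. Its groups overlapped fully, with a log2 fold of -0.01 ± 0.12. Mcm2, a helicase subunit, was at 14.8, 17.2 and 15.0 CPM with vehicle and at 13.1, 17.3 and 12.8 CPM with insB:9-23, with overlap and a log2 fold of -0.12 ± 0.15. Its 2 highest libraries were replicate 2 of each group, and the log2 fold was -0.28 without insB:9-23 replicate 2 and -0.04 without insB:9-23 replicate 3.

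The 6 helicase genes Mcm2 to Mcm7 had log2 folds between -0.12 for Mcm2 and 0.32 for Mcm5, the latter 0.09 without insB:9-23 replicate 2. Tyms, which makes thymidylate for DNA synthesis, had the highest log2 fold of the S phase genes, 0.35 ± 0.21 (adjusted p 0.88, edgeR). E2f1, an activating E2F factor, had the lowest, -0.34 ± 0.34, with its lowest level in insB:9-23 replicate 3 at 4.39 CPM, without which it was -0.06. No S phase gene had an unadjusted p below 0.05, and none had groups that did not overlap.

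Summed over genes, S phase transcripts lay at one level in both groups, and G2/M transcripts lay higher with insB:9-23. The S phase sum was 125, 120 and 136 CPM with vehicle and 123, 142 and 125 CPM with insB:9-23, or 127 ± 8.49 against 130 ± 10.2 CPM (SD, n = 3). These sums overlapped. The G2/M sum was 51.3, 59.4 and 57.6 CPM with vehicle and 63.9, 91.1 and 69.3 CPM with insB:9-23, or 56.1 ± 4.26 against 74.8 ± 14.4 CPM. At TMM scaling these sums did not overlap, and the insB:9-23 mean was 66.6 CPM without replicate 2. With library totals alone they overlapped through insB:9-23 replicate 3, whose TMM factor was 0.806. Without Mki67 and Top2a, the pair with the highest CPM, the G2/M sum was 33.0, 39.9 and 36.9 CPM with vehicle and 44.5, 54.0 and 45.3 CPM with insB:9-23.

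The log2 ratio of the S phase sum to the G2/M sum compares both within a library and does not move with its scaling. It was 1.29, 1.01 and 1.24 with vehicle and 0.95, 0.64 and 0.85 with insB:9-23. Every insB:9-23 library lay under every vehicle library, with means of 1.18 ± 0.15 and 0.81 ± 0.16 (SD, n = 3) and a difference of -0.37. As an unweighted mean over genes of log2(CPM + 0.5), in which abundant genes count no more than others, S phase minus G2/M was 1.69, 1.60 and 1.802 with vehicle and 1.49, 1.43 and 1.42 with insB:9-23. The difference in this measure was -0.25. Leaving out any 1 library kept the difference in the ratio of sums between -0.45 and -0.28, the latter without insB:9-23 replicate 2. No p is attached to these scores, because the genes were listed with earlier results of these data known.

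**Figure D3:**
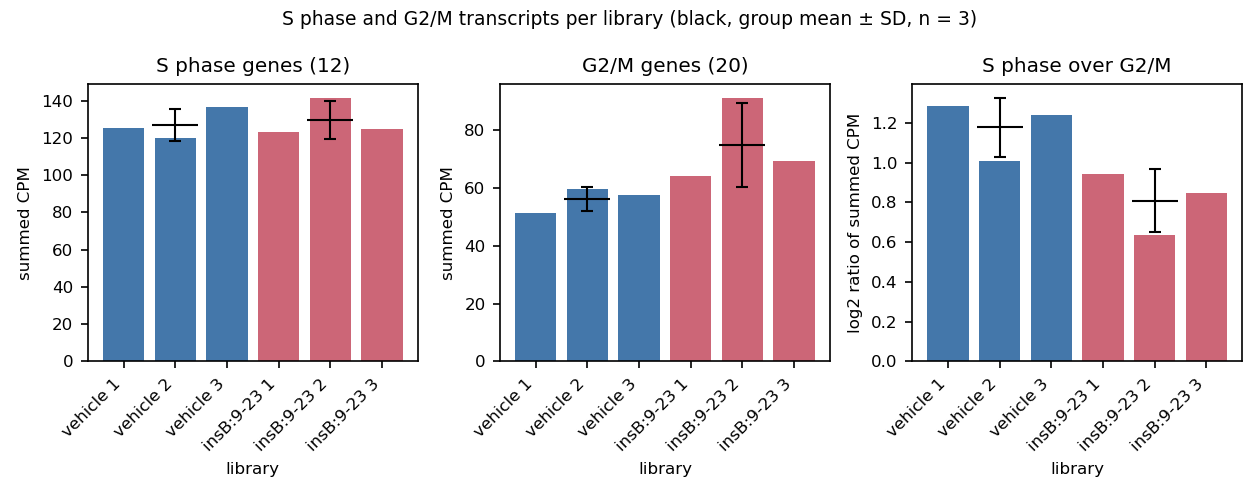
Summed CPM of 12 S phase genes, summed CPM of 20 G2/M genes and the log2 ratio of the first to the second (vertical axes) in each library (horizontal axes), with the group mean ± SD in black (n = 3). At TMM scaling S phase sums overlap (127 and 130 CPM on average) and G2/M sums do not (56.1 and 74.8 CPM), though the latter overlap with library totals alone. The ratio is lower in each insB:9-23 library (0.95, 0.64 and 0.85) than in each vehicle library.

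Ccnd2 and Ccnd1 were the most abundant of the 41 genes per length of transcript. Over all libraries Ccnd2, cyclin D2, averaged 68.8 CPM per kilobase of exon and Ccnd1, cyclin D1, 29.7, whereas Ccnd3, cyclin D3, averaged 3.35. Their partner Cdk4 averaged 20.8 and Cdk6 0.240 CPM per kilobase, while Mki67 averaged 1.31 and Bub1 0.170.

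Ccnd1 and Ccnd2 were lower in all 3 insB:9-23 libraries, mostly through replicate 2. Ccnd2 (chr6:127125162-127152193) was at 778, 776 and 757 CPM with vehicle and at 722, 132 and 719 CPM with insB:9-23. The groups did not overlap, and replicate 2 stood at 0.174 times the median of the other libraries. The log2 fold was -0.56 ± 0.60 (adjusted p 0.92, edgeR) with all libraries and -0.10 without that library. Ccnd1 (chr7:144929931-144939925) was at 182, 168 and 171 CPM with vehicle and at 151, 32.4 and 136 CPM with insB:9-23. Replicate 2 stood at 0.193 times the median of the others. The log2 fold was -0.71 ± 0.54 (adjusted p 0.90, edgeR) with all libraries, and -0.28 ± 0.08 without it (unadjusted p 0.016, adjusted p 0.76, edgeR). Its exons overlap LTO1 on the opposite strand over 23.4% of their bases.

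Single low values of this size occurred in every library, in few genes each. Among 1040 genes with a mean of at least 100 CPM, 3 to 8 per library stood at least 4-fold under the median of the other 5 libraries. In insB:9-23 replicate 2 there were 7, including Ccnd1 and Ccnd2. Of the 39 cell cycle genes with a mean of at least 1 CPM, 8 had a library more than 2-fold from the median of the others (20.5%), beside 19.5% of all such genes.

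Ccnd3 (chr17:47505051-47599691) did not share the low value. It was at 31.5, 33.1 and 32.7 CPM with vehicle and at 18.1, 29.1 and 31.8 CPM with insB:9-23. Here replicate 1 was low, and the log2 fold of -0.30 ± 0.21 (adjusted p 0.89, edgeR) was -0.09 without it. Cdk4 (chr10:127063534-127067920), the G1 kinase that D cyclins activate, was at 62.8, 66.9 and 65.5 CPM with vehicle and at 72.5, 63.2 and 74.8 CPM with insB:9-23, with overlap through insB:9-23 replicate 2 and a log2 fold of 0.11 ± 0.08 (adjusted p 0.90, edgeR). Without that library the groups did not overlap, and the log2 fold was 0.18 (unadjusted p 0.041, adjusted p 0.76, edgeR). On 19.7% of its exonic bases it overlaps Tspan31 on the opposite strand. Cdk6 (chr5:3341485-3531008), the related kinase, was at 2.87, 4.71 and 4.18 CPM with vehicle and at 0.768, 3.25 and 4.39 CPM with insB:9-23. Its low library was replicate 1, without which the log2 fold of -0.48 ± 0.62 was -0.03. Each gene of this group that lay below 0 thus took most of its log2 fold from a single library, replicate 2 for Ccnd1 and Ccnd2 and replicate 1 for Ccnd3 and Cdk6.

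**Figure D4:**
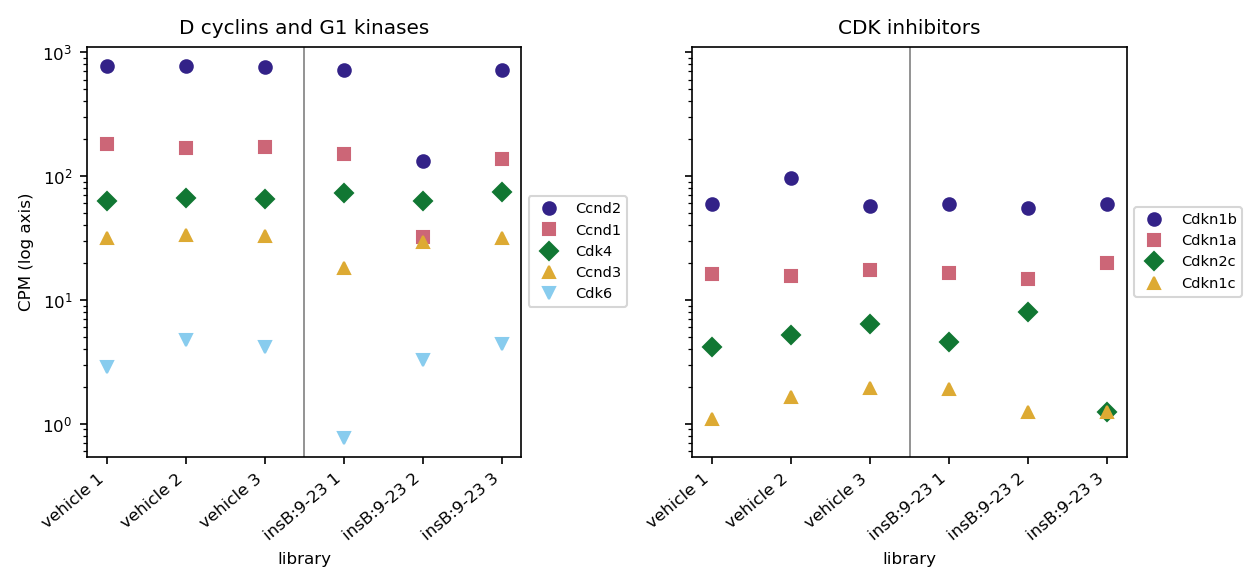
CPM on a log axis (vertical) of the D cyclins and G1 kinases, and of the inhibitors, in each library (horizontal axis; vehicle left of the grey line, insB:9-23 right of it). Ccnd1 and Ccnd2 are low in insB:9-23 replicate 2, Ccnd3 and Cdk6 in replicate 1 (18.1 and 0.768 CPM) and Cdkn2c in replicate 3 (1.25 CPM), while Cdkn1b is high in vehicle replicate 2 (96.7 CPM).

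The inhibitors showed no common direction. Cdkn1a (chr17:29090976-29100727), the p21 inhibitor that p53 induces, was at 16.1, 15.7 and 17.4 CPM with vehicle and at 16.4, 14.7 and 19.9 CPM with insB:9-23, with overlap and a log2 fold of 0.05 ± 0.14. Cdkn1b (chr6:134920401-134925513), the p27 inhibitor of resting cells, was at 59.4, 96.7 and 57.3 CPM with vehicle and at 59.4, 55.3 and 59.1 CPM with insB:9-23. Apart from vehicle replicate 2 the libraries were alike, and the log2 fold of -0.30 ± 0.21 (adjusted p 0.895, edgeR) was -0.01 without it.

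Cdkn1c (chr7:143458339-143461050), the imprinted p57 inhibitor, was at 1.09, 1.65 and 1.95 CPM with vehicle and at 1.91, 1.24 and 1.25 CPM with insB:9-23, a log2 fold of -0.09 ± 0.33 with overlap. Gm44732 covers 30.7% of its exonic bases on the opposite strand. Cdkn2c (chr4:109660876-109667189), the p18 inhibitor of Cdk4 and Cdk6, was at 4.19, 5.24 and 6.43 CPM with vehicle and at 4.56, 7.95 and 1.25 CPM with insB:9-23. Both the highest and the lowest library were in the insB:9-23 group, so the log2 fold of -0.20 ± 0.63 was 0.25 without replicate 3 and -0.86 without replicate 2.

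The balance of D cyclins to inhibitors was set apart in 1 library. Summed D cyclins were 991, 977 and 960 CPM with vehicle and 890.5, 193 and 887 CPM with insB:9-23, and the summed inhibitors 80.7, 119 and 83.1 CPM with vehicle and 82.3, 79.2 and 81.4 CPM with insB:9-23. Their ratio was 12.3, 8.20 and 11.6 with vehicle and 10.8, 2.44 and 10.9 with insB:9-23. Without replicate 2 the insB:9-23 mean of the ratio was 10.9, beside 10.7 ± 2.18 with vehicle (SD, n = 3). Ccnd2 made up 78.5%, 79.4% and 78.8% of D cyclin CPM with vehicle and 81.0%, 68.1% and 81.1% with insB:9-23.

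Lymphocyte markers moved with the high G2/M values of insB:9-23 replicate 2. The 12 T and NK cell markers summed to 4.45, 5.29 and 5.04 CPM with vehicle and to 5.40, 26.7 and 2.34 CPM with insB:9-23, and 11 of the 12 were highest in replicate 2. The 10 B and plasma cell markers summed to 56.7, 31.3 and 30.4 CPM with vehicle and to 50.6, 161 and 15.2 CPM with insB:9-23, and 9 of the 10 were highest there. Macrophage and dendritic cell markers summed to 86.6, 104 and 112 CPM with vehicle and to 114, 174 and 82.8 CPM with insB:9-23, with 6 of 10 highest there. Single genes weighed heavily in these sums. In replicate 2 Lyz2 was at 61.8 CPM, against 6.29 to 13.1 CPM in the other libraries. Of the B and plasma cell markers, Ighm was at 92.4 CPM in replicate 2 and Igkc at 0. Among the 20 G2/M genes 13 were highest in that library, and among the 12 S phase genes 5, where 19.2% of all genes tested were. The part of these immune markers in the G2/M values was not tested.

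Outside replicate 2, some marker lists overlapped between the groups and others did not. T and NK markers in insB:9-23 replicates 1 and 3 were 5.40 and 2.34 CPM, against 4.45 to 5.29 CPM with vehicle. B and plasma cell markers there were 50.6 and 15.2 CPM, against 30.4 to 56.7 CPM. In these sums Igkc alone ranged from 0 to 13.5 CPM with vehicle. Cd22 was at 2.58 and 1.90 CPM in replicates 1 and 3, against 0.753 to 1.28 CPM with vehicle. Cd22 and Cd3g lay above the vehicle range in all 3 insB:9-23 libraries, a pattern of 6.4% of all genes tested. Cd79b, Ms4a1, Pax5 and Ighm lay above the vehicle range in replicate 1 but not in replicate 3. The remaining markers of these lists did so in neither. In insB:9-23 replicates 1 and 3 the G2/M sums were 63.9 and 69.3 CPM, both above the vehicle range of 51.3 to 59.4 CPM. With library totals alone, the sum of replicate 3 did not exceed the vehicle range. Without insB:9-23 replicate 2 the median log2 fold of the G2/M genes was 0.23, with 17 of 20 above 0, that of the S phase genes was -0.01, and 0 of 41 genes passed the edgeR test. Acinar markers were at 135359 and 226729 CPM in insB:9-23 replicates 1 and 3, against 104155 to 124987 CPM with vehicle, so they too lay above the vehicle range in the libraries with those G2/M sums. In insB:9-23 replicate 2, which had the highest G2/M sum (91.1 CPM), the acinar sum was 116010 CPM, within the vehicle range. The 6 duct cell markers summed to 187, 174 and 169 CPM with vehicle and to 194, 215 and 193 CPM with insB:9-23. These sums had no overlap at TMM scaling but overlapped with library totals alone. The 8 neutrophil and mast cell markers summed to 9.77, 8.37 and 9.41 CPM with vehicle and to 11.9, 11.2 and 13.5 CPM with insB:9-23, again with no overlap, but 5 of the 8 were under 10 counts in every library and nearly all of the sum was Kit. Summed markers of beta, alpha, delta, endothelial, fibroblast and mural, erythroid and Schwann cells overlapped between the groups. The beta cell sum was mostly Ins1, Ins2 and Iapp. Of the 9 tested beta cell markers, 6 were below 0 and 3 above, with a median log2 fold of -0.12. At TMM scaling 4 of them, Slc2a2, G6pc2, Ucn3 and Slc30a8, were lower with no overlap, where 7.12% of all genes were. None of the 9 passed the adjusted test. The part of the acinar, duct, beta cell and Kit values in the cell cycle genes was not tested.

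**Figure D5:**
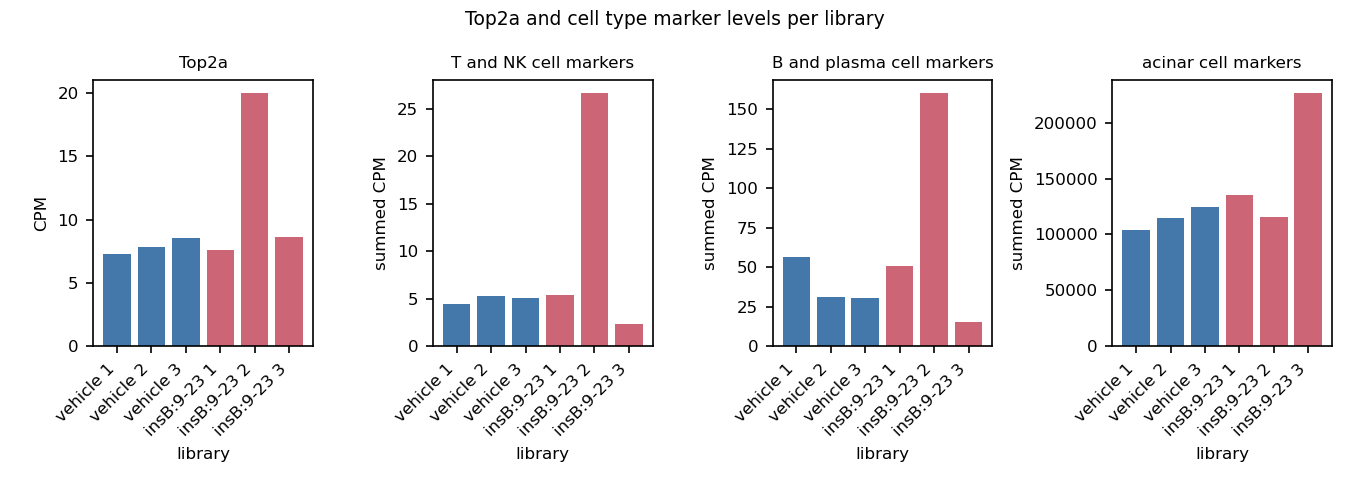
Top2a in CPM and summed CPM of cell type markers (vertical axes, from 0) in each library (horizontal axes). Top2a (20.0 CPM) and the T and NK cell (26.7 CPM) and B and plasma cell (161 CPM) sums are highest in insB:9-23 replicate 2, and the acinar sum (226729 CPM) in insB:9-23 replicate 3.

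Other pathway genes numbered 146, of which 144 were tested and 0 passed edgeR's adjusted test. Of 45 other G2/M genes, 37 were above 0 and 8 below, with a median log2 fold of 0.38, and 3 had an unadjusted p below 0.05, all higher with insB:9-23, where 2.74% of all genes were. The lowest p was that of Hmmr, a spindle-associated hyaluronan receptor, at 1.39, 1.35 and 1.65 CPM with vehicle and at 2.15, 2.53 and 3.74 CPM with insB:9-23. Its groups did not overlap, and the log2 fold was 0.94 ± 0.28 (unadjusted p 0.015, adjusted p 0.88, edgeR). Of these 45 genes, 22 were highest in insB:9-23 replicate 2. Their summed CPM was 235, 230.3 and 233 with vehicle and 243, 275 and 232 with insB:9-23, which overlapped. A large part of this sum was Spc25, taken up under the other observations. The sum is therefore not set against that of the 20 listed G2/M genes.

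Of 37 other S phase genes, 24 were above 0 and 13 below, with a median of 0.09 and none at an unadjusted p below 0.05. Uhrf1, which carries DNA methylation through replication, had the lowest p, with a log2 fold of 0.40 ± 0.21 (adjusted p 0.88, edgeR). Both medians lay next to those of the listed genes (0.36 and 0.09), in genes that the list does not hold, although all come from the same 6 libraries.

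Among 22 genes of the RB, E2F and DREAM families 13 were above 0 and 9 below, with a median of 0.07, and 1 had an unadjusted p below 0.05, lower, where 2.81% of all genes were. That gene was E2f4, an E2F factor of resting cells, at 34.7, 34.0 and 31.7 CPM with vehicle and at 27.6, 21.4 and 29.4 CPM with insB:9-23. The groups did not overlap, and its log2 fold was -0.36 ± 0.13 (adjusted p 0.88, edgeR). Among 20 genes of the p53 pathway 11 were above 0 and 9 below, with a median of 0.03. The lowest p there was that of Zmat3, an RNA-binding p53 target, with a log2 fold of -0.15 ± 0.08. Of 20 tested regulators of beta cell replication 7 were above 0 and 13 below, with a median of -0.04. Irs2, the insulin receptor substrate that signals to beta cell growth, was at 25.6, 29.7 and 23.9 CPM with vehicle and at 40.9, 36.7 and 42.9 CPM with insB:9-23. The groups did not overlap, and its log2 fold was 0.61 ± 0.11 (unadjusted p 0.0018, adjusted p 0.50, edgeR).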

How the data were processed

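Total RNA of islets was extracted with TRIzol and sequenced from a stranded KAPA library, per the labels. The values are unnormalized read counts by Ensembl gene identifier, which the authors deposited as a separate file for each library. GRCm38 is the build, and HISAT, featureCounts 1.5.0-p3 and DESeq 1.8.3 are the tools, in the submitters' processing notes. The sources used here give neither annotation release nor strand setting. Sample titles gave the group and replicate number. Symbols came from GENCODE M21 and matched 55154 of the 55421 identifiers.

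The test across all genes was that of edgeR 4.0.16, run in R 4.3.3 (filterByExpr, TMM, quasi-likelihood F test with robust dispersion, Benjamini-Hochberg over 17016 genes, threshold 0.05), which called 14 genes, 5 higher and 9 lower with insB:9-23. Standard errors were taken as the log2 fold over the square root of F. Exon lengths and overlaps came from GENCODE M21, and promoter windows from RefSeq. The test was run on simulated counts before use.

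The 41 genes, the other pathway lists, the markers and the tests were chosen with earlier results of these data known. Values of every library are given for genes with an unadjusted p below 0.05, for those whose groups did not overlap at a mean of at least 1 CPM, for 11 chosen genes, and for the 3 S phase and 3 G2/M genes with the highest mean CPM. In each further list, the gene with the lowest p is named. Cdk6 and other genes with fuller values were named after their values were seen. One marker list is not reported here.

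Alternatives were RLE, upper-quartile and total-count scaling, DESeq2 1.42.0, limma-voom (limma 3.58.1), 2 other filters, leaving out 1 library at a time, and a block for the replicate number. Libraries of 1 group differed by a chi-square of 80.0 to 247 per degree of freedom, so none was a repeat of another.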

Additional observations from a re-analysis of the deposited data

How the results depend on the processing

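No cell cycle gene passed the adjusted test under any scaling, tool, filter, block or left-out library that was run, and the G2/M median log2 fold was above 0 in each. Genes called over the whole table numbered 14, but 116 with DESeq2 (55 higher, 61 lower), 0 with the replicate block (605 at an unadjusted p below 0.05) and 16 to 26 with 1 library left out. Without vehicle replicate 1 there were 23, without insB:9-23 replicate 1 there were 25 and without insB:9-23 replicate 3 there were 26. Same-numbered libraries did not deviate together (correlations of -0.03, -0.07 and -0.01), and no library correlated best with its own number, so the numbers were not taken as pairs.

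Cell cycle genes at an unadjusted p below 0.05 numbered 2, but 1 with library totals alone (4.63% of all genes; the 1 was Ccnd3, lower, and neither Tpx2 nor Cenpe), 4 with DESeq2 (6.56%), 5 with limma-voom (6.21%), and 0 to 4 with 1 library left out (0 without vehicle replicate 1, 4 without insB:9-23 replicate 1). Library totals alone moved the median of all genes to -0.15, and with it the S phase median to -0.061 and the G2/M median to 0.20, both still above the median of all genes. With 1 library left out, the median log2 fold ranged from -0.01 to 0.16 for S phase, from 0.23 to 0.47 for G2/M, from -0.85 to -0.088 for D cyclins and G1 kinases, and from -0.32 to 0.03 for inhibitors. The G2/M low was without insB:9-23 replicate 2 and the D cyclin high of -0.088 without insB:9-23 replicate 1.

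Some signs reversed. Rrm1 was at 0.0033 with upper-quartile scaling. With library totals alone Pcna was at -0.017, Cdk4 at -0.051 and Cdkn1a at -0.12, and among the other listed genes Mcm3 was at -0.014, Mcm6 at -0.092, Mcm7 at -0.14, Rrm2 at -0.031 and Cdc20 at -0.13, so that 19 of 41 were above 0 in place of 27. With 1 library left out Pcna ranged from -0.11 to 0.32, Rrm1 from -0.10 to 0.062, Cdkn1c from -0.33 to 0.10, Cdkn1a from -0.073 to 0.15 and Cdkn2c from -0.86 to 0.25. Left-out libraries leave 5 samples, and the cause of the other shifts was not tested. Depth limits the mitotic genes most: the lowest count of a listed gene was 21, against 49125 for the highest.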

Other observations

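A few further cell cycle genes had values that stand out. They were chosen after their values were seen, and no test is attached to them beyond the fit over all genes. Btg2, an antiproliferative gene induced by p53, was at 250.3, 239 and 6.22 CPM with vehicle and at 347, 356 and 359 CPM with insB:9-23. Vehicle replicate 3 held 332 counts of it against 14914 to 20305 in the other libraries, and the log2 fold was 1.10 ± 1.11. The other vehicle libraries also lay under all 3 insB:9-23 libraries. Hmgb2, a chromatin protein abundant in dividing cells, was at 8.17, 8.27 and 7.27 CPM with vehicle and at 9.70, 21.7 and 8.83 CPM with insB:9-23, high in the same library as Top2a. Cdkn2b, the p15 inhibitor of Cdk4 and Cdk6, had 0, 104 and 73 counts with vehicle and 325, 129 and 77 counts with insB:9-23. Cks1b, a small subunit that binds cyclin-dependent kinases, was at 7.35, 6.30 and 8.26 CPM with vehicle and at 3.69, 6.28 and 2.88 CPM with insB:9-23, so its groups did not overlap and lay opposite to most G2/M genes.

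Spc25 was far more abundant than its partners. Spc25, Nuf2 and Ndc80 encode subunits of one kinetochore complex, yet Spc25 averaged 27.2 CPM per kilobase of exon, beside 0.184 for Nuf2 and 0.152 for Ndc80. Its libraries lay between 79.1 and 97.5 CPM, with no sign of the high G2/M values in insB:9-23 replicate 2. In GENCODE M21 on GRCm38 the gene lies at chr2:69193895-69206194, and the beta cell gene G6pc2 lies next to it at chr2:69211073-69227841, at 266 to 338 CPM. Whether the reads counted for Spc25 are those of its own transcript was not tested.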
